A study of Mus musculus with 4 samples.

Results

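In mouse bone marrow-derived dendritic cells, 1123 peaks of the histone mark H3K79me2 lay at the ends of protein-coding genes in cells given PBS and had no counterpart in cells given lysine. They are called PBS-only gene-end peaks here. Each is a broad peak of the PBS list that no peak of the lysine list overlapped by even 1 bp, and its midpoint was at most 1 kb from the start or the far end of such a gene. The PBS list held 11926 peaks, 5126 of them at gene ends, so the 1123 were 21.9% of the gene-end PBS peaks. The lists of both conditions together held 21731 peaks. The members were chosen by these calls, so their number, strength and width are a description and no finding.

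The cells came from bone marrow of C57BL/6J mice, were labelled as bone marrow-derived dendritic cells (BMDCs) and were grown in RPMI medium with fetal bovine serum. The PBS culture received phosphate-buffered saline (PBS), the vehicle, and the lysine culture received lysine, an amino acid, at 18 mM over 6 h. For PBS no time is stated. The labels give neither the age nor the sex of the mice, nor whether animals were pooled. After fixation with formaldehyde, chromatin was precipitated for H3K79me2 and sequenced from paired ends. From each condition came an H3K79me2 library and an input library, and the peak lists of the former were set side by side. With 1 library per condition there is no spread between replicates and no test. The lists hold no read counts, so the depth is unknown, and a peak that is absent from a list was not called there, which does not show that the mark was absent. Shares are followed by exact 95% Clopper-Pearson intervals that cover counting error only.

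H3K79me2 denotes dimethylation of a lysine in the globular core of histone H3. The methyltransferase Dot1l places it, and it lies mainly over the first part of transcribed genes, behind the start site, where it accompanies elongating RNA polymerase. Dendritic cells take up antigen, present it on MHC molecules and release cytokines. BMDC cultures are known to hold macrophage-like cells beside dendritic cells.

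The promoters at some of these peaks show what kinds of gene start were involved. Each sequence below is from RefSeq (GRCm38.p6) and runs 5′ to 3′ on the gene's strand, from 250 bp before to 50 bp after the annotated start, so the last 50 bases begin at the start site. Capitals mark motif matches on either strand. The TATA box was searched by the letters TATAAA, and the CCAAT box by those of its name. For the GC box the letters were GGGCGG, and for the motif of ETS factors they were CCGGAAG. The palindromic NRF1 motif was searched as well. The first 4 belong to the strongest PBS-only gene-end peaks. Cox6a1, a subunit of cytochrome c oxidase, had the strongest of all, at chr5:115348831-115349249, and its window is chr5:115348909-115349208 on the minus strand. The homeobox factor Hlx has the window chr1:184732444-184732743 (minus), the sorting nexin Snx5 chr2:144270523-144270822 (minus) and the kelch-like protein Klhl11 chr11:100472733-100473032 (minus).
Cox6a1: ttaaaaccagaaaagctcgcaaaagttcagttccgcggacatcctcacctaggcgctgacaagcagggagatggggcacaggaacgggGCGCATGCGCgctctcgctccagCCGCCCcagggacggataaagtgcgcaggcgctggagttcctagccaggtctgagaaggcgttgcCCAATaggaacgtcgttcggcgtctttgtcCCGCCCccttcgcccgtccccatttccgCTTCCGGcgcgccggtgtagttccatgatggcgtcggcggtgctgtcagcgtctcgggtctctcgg
Hlx: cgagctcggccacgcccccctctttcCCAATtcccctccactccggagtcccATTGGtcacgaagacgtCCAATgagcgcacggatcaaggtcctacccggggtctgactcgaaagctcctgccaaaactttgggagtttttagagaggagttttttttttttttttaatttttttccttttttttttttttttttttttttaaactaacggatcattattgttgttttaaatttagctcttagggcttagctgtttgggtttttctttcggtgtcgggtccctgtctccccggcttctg
Snx5: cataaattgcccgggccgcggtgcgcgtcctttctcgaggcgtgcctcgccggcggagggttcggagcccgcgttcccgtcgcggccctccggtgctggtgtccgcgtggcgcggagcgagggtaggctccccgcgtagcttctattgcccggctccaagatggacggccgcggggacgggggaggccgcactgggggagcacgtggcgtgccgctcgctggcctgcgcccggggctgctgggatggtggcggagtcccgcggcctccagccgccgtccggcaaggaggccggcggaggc
Klhl11: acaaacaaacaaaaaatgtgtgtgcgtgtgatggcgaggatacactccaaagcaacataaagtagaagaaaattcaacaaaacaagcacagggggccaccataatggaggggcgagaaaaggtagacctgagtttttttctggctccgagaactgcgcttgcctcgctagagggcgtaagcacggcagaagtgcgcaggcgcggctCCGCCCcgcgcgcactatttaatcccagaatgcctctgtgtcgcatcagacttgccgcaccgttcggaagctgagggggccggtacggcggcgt
The Cox6a1 window held 32 CpG dinucleotides and matches to 4 of the motif kinds. Snx5 had 44 CpG and no motif match, and Hlx had 14 CpG and 3 CCAAT boxes.

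The next 5 windows belong to genes of immune and amino acid functions and to an X-linked gene. H2-Eb1, an MHC class II beta chain, has the window chr17:34305617-34305916 (plus). Fcgr1, the high-affinity Fc receptor for IgG, has chr3:96293920-96294219 (minus). The inflammatory cytokine Tnf has chr17:35201958-35202257 (minus). Slc25a29, a mitochondrial carrier of basic amino acids including lysine, has chr12:108835827-108836126 (minus). Psmd10, a chaperone of proteasome assembly, has chrX:140956662-140956961 (minus).
H2-Eb1: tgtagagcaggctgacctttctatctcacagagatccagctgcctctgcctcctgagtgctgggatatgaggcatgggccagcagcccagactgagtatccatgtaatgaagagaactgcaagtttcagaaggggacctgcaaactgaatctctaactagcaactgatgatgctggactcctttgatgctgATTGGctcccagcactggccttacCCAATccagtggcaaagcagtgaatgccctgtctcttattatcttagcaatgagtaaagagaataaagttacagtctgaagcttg
Fcgr1: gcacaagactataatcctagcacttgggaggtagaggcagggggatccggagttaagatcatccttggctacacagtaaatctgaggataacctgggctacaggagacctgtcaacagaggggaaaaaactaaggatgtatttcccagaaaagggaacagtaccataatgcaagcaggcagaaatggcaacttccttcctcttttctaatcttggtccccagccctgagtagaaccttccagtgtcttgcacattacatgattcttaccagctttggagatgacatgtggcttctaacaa
Tnf: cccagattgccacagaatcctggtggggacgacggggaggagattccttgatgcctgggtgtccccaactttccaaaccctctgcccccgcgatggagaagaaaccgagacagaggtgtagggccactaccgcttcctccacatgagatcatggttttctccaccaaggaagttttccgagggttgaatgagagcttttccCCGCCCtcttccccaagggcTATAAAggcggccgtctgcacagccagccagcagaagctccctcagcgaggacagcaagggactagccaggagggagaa
Slc25a29: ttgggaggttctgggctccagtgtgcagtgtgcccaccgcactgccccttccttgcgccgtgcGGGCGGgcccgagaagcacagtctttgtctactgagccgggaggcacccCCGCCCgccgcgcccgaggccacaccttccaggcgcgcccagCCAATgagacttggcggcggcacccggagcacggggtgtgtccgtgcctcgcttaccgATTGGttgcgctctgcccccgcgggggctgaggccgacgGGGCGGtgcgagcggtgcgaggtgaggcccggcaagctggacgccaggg
Psmd10: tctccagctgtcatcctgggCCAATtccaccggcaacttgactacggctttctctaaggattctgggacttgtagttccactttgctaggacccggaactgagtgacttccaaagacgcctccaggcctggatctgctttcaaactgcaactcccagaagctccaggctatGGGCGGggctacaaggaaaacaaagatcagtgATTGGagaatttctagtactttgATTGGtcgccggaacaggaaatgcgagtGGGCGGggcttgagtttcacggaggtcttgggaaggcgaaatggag
The H2-Eb1 and Fcgr1 windows were almost free of CpG, with 0 and 1, whereas the Slc25a29 window held 32. Tnf carried a TATA box and a GC box.

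Across all 15752 gene starts with a RefSeq window near the annotated gene end, those with a PBS-only peak sat between those with a shared peak and those with none in CpG content. The CpG content was summarised as the ratio of CpG observed to that expected from the C and G content. It exceeded 0.6 at 77.6% (74.7 to 80.3) of 878 starts with a PBS-only peak, at 88.8% (87.7 to 89.7) of 3734 starts with a shared PBS peak and at 83.1% (80.0 to 85.9) of 639 starts with a lysine-only peak. At starts with no peak in either list it did so in 30.1%, and over all starts in 48.9%. Among starts with PBS peaks of −log10 q of at least 5 the share was 86.4% (78.9 to 92.0) for PBS-only and 91.0% (89.7 to 92.1) for shared peaks. Below 5 it was 76.2% and 85.5%, and the part of peak strength in the difference was not tested. PBS-only peaks overlapped the window by 1 bp or more at 800 of 880 starts that had both, a count that also holds the 2 starts with a shared peak beside the PBS-only one.

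CCAAT boxes were less frequent at PBS-only starts than at shared ones. They occurred in 33.8% (30.7 to 37.1) of PBS-only windows, 51.0% (49.4 to 52.7) of shared ones, 32.2% (28.6 to 36.0) of lysine-only ones and 39.4% of all windows. Peak strength moved with this share, and its part in the difference was not tested: among starts with PBS peaks of −log10 q of at least 5 the share was 38.1% (29.4 to 47.5) for PBS-only and 59.0% for shared peaks, and below 5 it was 33.2% and 39.4%. GC boxes occurred in 62.8% of PBS-only, 72.2% of shared and 46.7% of all windows. ETS motifs stood in 23.9% of PBS-only, 23.2% of shared and 12.05% of all windows, and TATA boxes in 7.52%, 5.89% and 13.7%. These matches describe letters in a window and no bound factor. The other motifs were found in PBS-only and in all windows as follows: the NRF1 motif in 2.73% and 1.42%, the cyclic AMP element TGACGTCA in 3.19% and 2.38%, the PU.1 motif GAGGAAGT in 2.73% and 3.20%, the interferon-stimulated response element in 3.08% and 3.50%, and the AP-1 motif TGANTCA in 5.24% and 6.996%. The NF-kB motif was in 0.228% and 0.140%.

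PBS-only gene-end peaks were mostly narrow and weak. Strength is given as the authors' −log10 q, the significance the peak caller assigned, and as their fold enrichment, the ratio of signal to background. The median width was 401 bp, the lower and upper quartiles were 334 and 492 bp, and the widest reached 2054 bp. Fold ran from 3.07 to 7.78 with a median of 4.105, and −log10 q from 1.42 to 12.2 with a median of 3.04. The 4003 shared gene-end PBS peaks had medians of 538 bp in width, 5.22 in fold and 5.71 in −log10 q. Within the PBS list the median member stood at the 32.1th percentile of −log10 q, and the median shared gene-end peak at the 70.1th. Of the members, 153 (13.6%) reached a −log10 q of 5, which was 6.21% of the 2465 gene-end PBS peaks that strong, and 21 reached 8.

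The share of PBS peaks without a lysine partner fell with strength. In the weakest decile of the PBS list 54.2% (48.8 to 59.5) of gene-end peaks had none, and in the strongest decile 0.710%. Away from gene ends the share was higher in each decile, from 78.0% to 3.45%, and 50.3% over all. It also depended on width: 48.1% of gene-end PBS peaks under 350 bp lacked a partner, 31.6% of those from there to below 450 bp, 13.7% to below 600 bp and 9.65% to below 1 kb. Gene-end PBS peaks of 1 kb or more lacked one in 80 of 612 cases, 13.1% (10.5 to 16.0), and lysine peaks of that width lacked a PBS partner in 30 of 460, 6.52% (4.44 to 9.18).

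**Figure D1:**
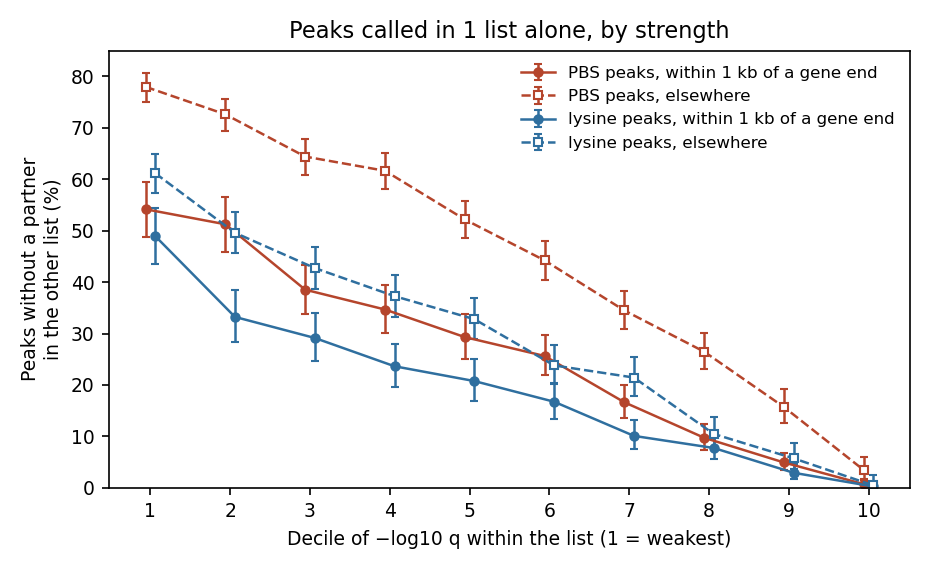
Share of peaks without a partner in the other list (vertical axis, percent) against the decile of −log10 q within the list (horizontal axis), for PBS and lysine peaks at gene ends (filled) and elsewhere (open); bars are 95% Clopper-Pearson intervals. The share at PBS gene ends falls from 54.2% in the weakest to 0.710% in the strongest decile.

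The reverse set, lysine peaks at gene ends without a PBS partner, numbered 769 of 4788, or 16.1%. The lysine list was shorter, with 9805 peaks. When only the strongest 9805 peaks of the PBS list were kept, the order turned: 793 of 4504 PBS gene-end peaks (17.6%) and 1062 of 4788 lysine gene-end peaks (22.2%) lacked a partner. The larger number on the PBS side thus did not hold for equal numbers of peaks. Trimming the PBS list alone can only lower the PBS-only number and raise the lysine-only one, so the direction of that shift was set beforehand. Under the other settings listed in the methods, applied alike to both lists, the PBS-only number was 1.40 to 1.63 times the lysine-only one. Lysine-only gene-end peaks had much the same shape as the PBS-only ones, with medians of 387 bp in width, 4.03 in fold and 2.72 in −log10 q.

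Most members sat at gene starts. Of 873 members whose genes all had a known strand, 790 (90.5%) were near a start alone, 48 (5.50%) near a far end alone and 35 (4.01%) near both. The median midpoint lay 14.5 bp inside the gene for 847 members, against 17.5 bp before the start (−17.5 bp) for 3320 shared peaks. Midpoints more than 250 bp inside the gene made up 18.7% of the members and 14.1% of the shared peaks.

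**Figure D2:**
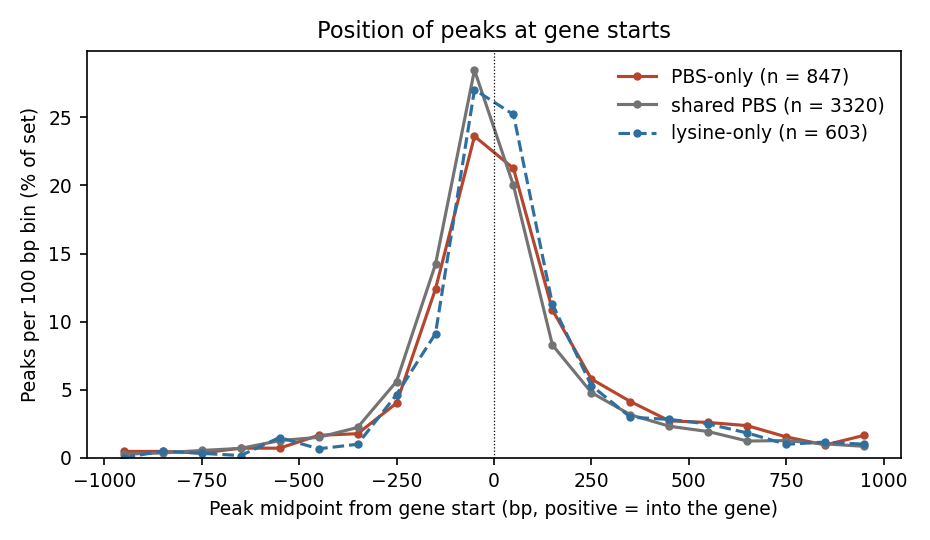
Percent of peaks per 100 bp bin (vertical axis) against the distance of the peak's midpoint from the gene start (horizontal axis, bp, positive into the gene) for PBS-only, shared PBS and lysine-only gene-end peaks at genes of known strand. All 3 sets crowd around the start, with medians of 14.5, −17.5 and 14.5 bp.

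Peaks at the far ends of genes lacked a lysine partner more often than peaks at starts. The share was 48 of 108, or 44.4% (34.9 to 54.3), at far ends alone and 790 of 3848, or 20.5% (19.3 to 21.8), at starts alone. Far-end peaks were weaker, with a median −log10 q of 3.796 against 4.91. Within classes of strength the far ends were still higher: 66.7% against 46.0% under a −log10 q of 3, 46.9% against 27.6% from 3 to 5, and 18.9% (7.96 to 35.2) against 5.08% (4.14 to 6.17) at 5 or more. In the lysine list the shares were 30.1% at far ends and 15.5% at starts, but 0 of 18 strong far-end peaks lacked a PBS partner. Otulin, which encodes a deubiquitinase of linear ubiquitin chains, shows the arrangement: a PBS-only peak of −log10 q 9.57 stood at its far end (chr15:27596808-27597253), while its start carried a peak of 4.39 in PBS and of 4.53 in lysine. Starts shared by 2 or more genes lacked a lysine partner less often, in 14.5% (11.8 to 17.5), than starts of 1 gene, in 21.7% (20.3 to 23.1). Peak strength was not compared between these kinds of start, and its part in the difference was not tested.

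For most members no lysine peak lay anywhere on the gene. A lysine peak within the gene or 1 kb beyond it was present for 227 of 1123, or 20.2% (17.9 to 22.7), while 33.1% of all protein-coding genes had a lysine peak so placed and 35.8% a PBS peak. That background counts lysine peaks at starts, which the members lack by their definition, so the shares are not alike in kind. In 819 cases (72.9%) the gene had no other peak of either list, and in 77 (6.86%) it had another PBS peak but no lysine peak. The reverse set was similar: for lysine-only gene-end peaks the gene had no other peak of either list in 71.7% and a PBS peak in 24.4%. The 227 had their lysine peak inside the gene in 168 cases, at the opposite end in 61, at the same end in 6 and beyond the gene in 5, with some in more than 1 place. In 150 of the 227 every such lysine peak overlapped a PBS peak, and in 77 at least 1 was called in lysine alone. The nearest lysine peak was a median of 38846 bp away, and 191 members (17.0%) had one within 10 kb, 35 within 2 kb and 6 within 1 kb.

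Counted by gene, 1281 protein-coding genes (5.85% of 21900) had a PBS-only gene-end peak, which was 21.3% of the 6023 genes with any gene-end PBS peak. Of these genes 1047 had no lysine peak, and 977 of them had that PBS peak alone. The other 234 had a lysine peak. Their length under peaks was counted within the gene body alone, so members or parts of them beyond its ends added nothing. It was shorter in lysine for 167, longer for 65 and equal for 2. The medians were 704 bp in PBS and 414.5 bp in lysine. The direction of that difference is partly set by the choice of genes, since each lacks a lysine peak where it has a PBS one. Another protein-coding gene overlapped 270 of the 1281, so their peaks may belong to either.

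Gene length hardly set the members apart. The median was 21959 bp, compared with 20468 bp for 4742 genes whose gene-end PBS peaks were all shared and 17146 bp for all protein-coding genes. Of genes with a gene-end PBS peak, those with a PBS-only one made up 19.6% (16.9 to 22.6) under 5 kb and 23.7% (17.3 to 31.2) at 200 kb or more. A lysine peak elsewhere on the gene went with length: it was present on 5.23% (2.28 to 10.0) of the member genes under 5 kb, on 32.1% from 50 to 200 kb and on 48.6% (31.9 to 65.6) at 200 kb or more. The median length was 43300 bp with a lysine peak and 19700 bp without. Lysine peaks on other genes were not counted by length class. Among all protein-coding genes, those without any peak in either list were also shorter, with a median of 12059 bp against 17146 bp.

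**Figure D3:**
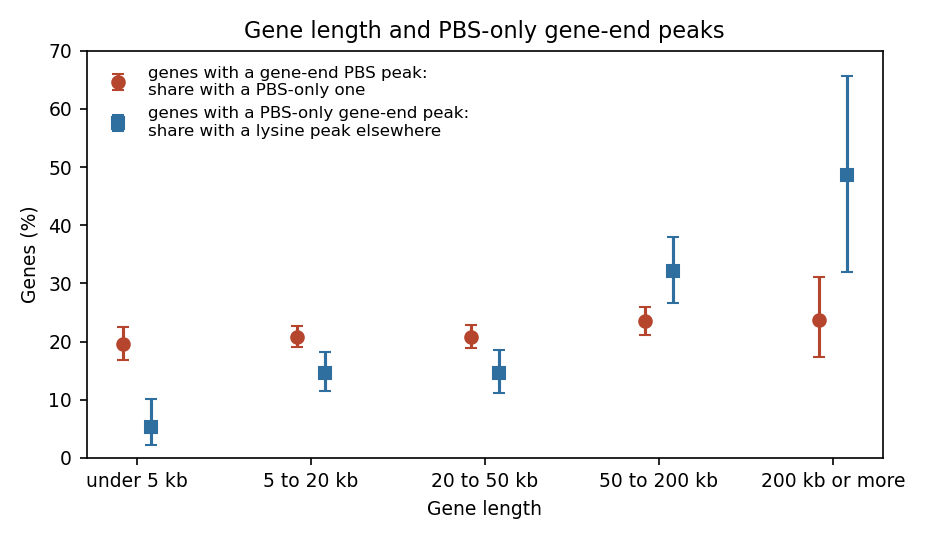
Share of genes (vertical axis, percent) by gene length class (horizontal axis): circles, genes with a PBS-only gene-end peak among those with any gene-end PBS peak; squares, genes with a lysine peak elsewhere among those with a PBS-only gene-end peak; bars are 95% Clopper-Pearson intervals. The circles stay between 19.6% and 23.7%, and the squares climb from 5.23% to 48.6%.

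The strongest members were at genes of varied function. Cox6a1 had a −log10 q of 12.2, a width of 419 bp and a 7.78-fold enrichment, and the nearest lysine peak was 7382 bp away, outside the gene. Hlx followed with 11.1 and 7.39, and a second PBS-only peak of 318 bp lay 3241.5 bp into the gene. The promoter that serves Snx5 and Mgme1, a mitochondrial exonuclease, had 10.6, and Klhl11 10.3. BC031181 had 10.7. Next came Rtkn2 with 10.2, the Mediator subunit Med24 with 9.69, the G protein subunit Gnaz with 9.60, Otulin with 9.57 and the zinc finger gene Zfp597 with 9.39. Vcl (vinculin, a link between actin and adhesions) had 9.30 at its start, and a lysine-only peak of 357 bp lay 102876 bp into the gene, near its far end. All 11 remained PBS-only gene-end peaks under each of the 9 other settings tried. Peaks this strong could be lost only by a partner within 500 bp, the narrow blocks or the 500 bp window. The remaining settings had to keep them and lend no support.

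Wide members were few and weak. Of the 1123, 80 (7.12%) reached 1 kb, with a median −log10 q of 2.56 and a highest value of 5.38. Narrower members had a median of 3.09. Wide peaks were weaker than narrower ones in the other sets too. The medians were 4.90 and 5.87 for shared PBS peaks, and 2.20 and 2.75 for lysine-only gene-end peaks. At genes of known strand the midpoints of wide members lay inside the gene in 73.3% of 60, compared with 52.4% of 787 narrower members. The median position of the wide ones was 342.5 bp inside the start. This was not particular to the members. The shares of wide and narrower peaks were 61.1% and 42.1% for shared PBS peaks, and 70.4% and 54.3% for lysine-only gene-end peaks. Among the widest members were those at Creb1, the cyclic AMP response factor (2036 bp), and Nadk, the NAD kinase (1960 bp). Sephs1 (1929 bp), Rgcc (1920 bp), the myeloid transcription factor gene Cebpb (1813 bp), the coactivator gene Ppargc1b (1793 bp), Tmem86a (1742 bp), 4921524J17Rik (1712 bp) and Clint1 (1676 bp) followed. Of these named genes, Rgcc alone had a lysine peak on the gene. The Cebpb peak, chr2:167688459-167690271, was longer than the gene itself, which spans 1518 bp, but its −log10 q was 2.45.

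**Figure D4:**
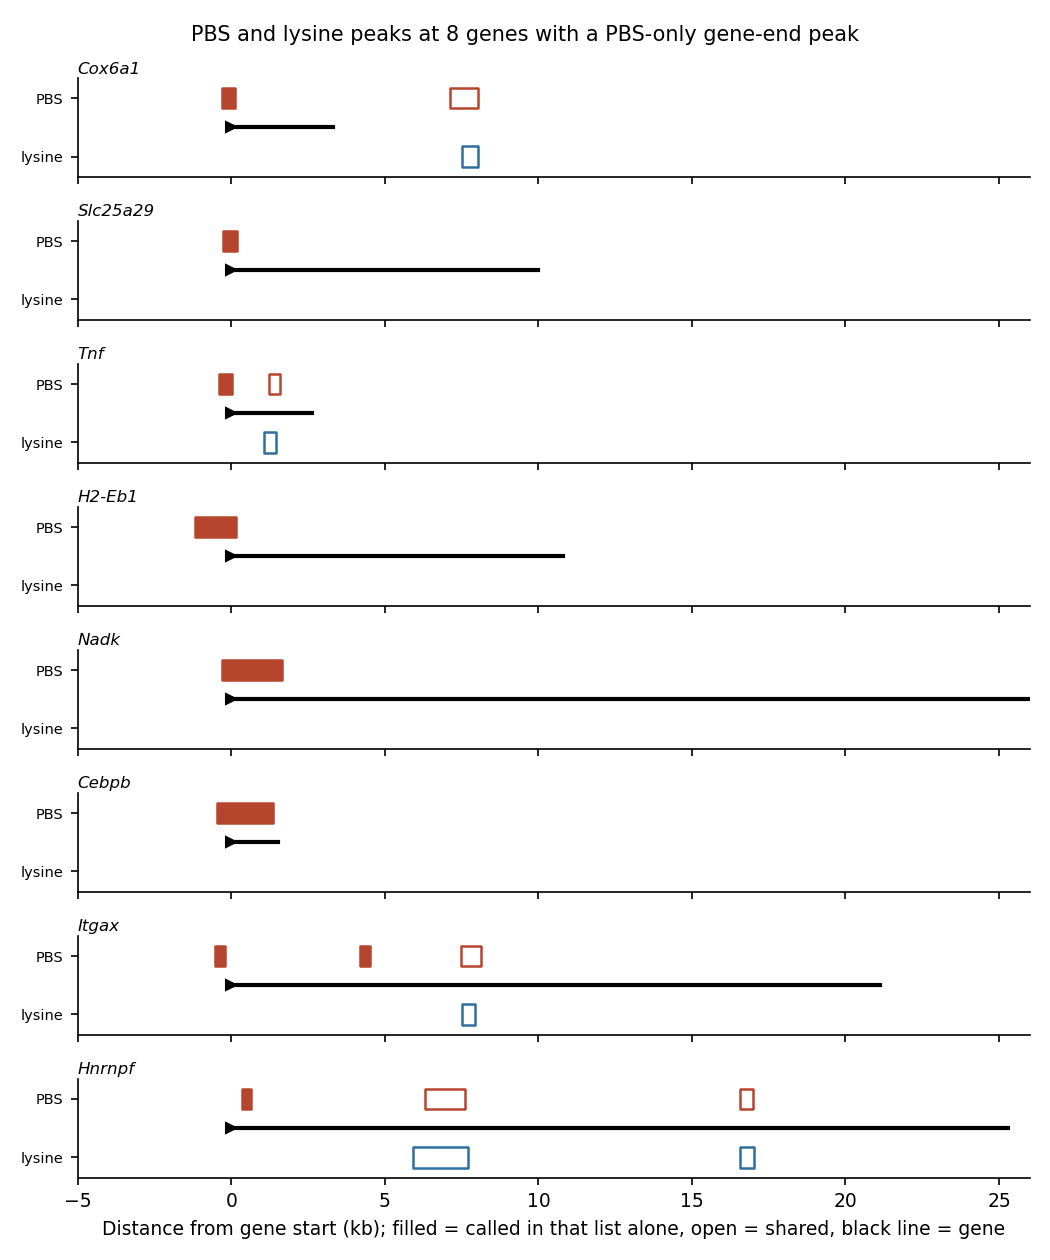
Peaks within 5 kb of 8 genes with a PBS-only gene-end peak, by distance from the gene start (horizontal axis, kb): PBS peaks above and lysine peaks below the gene (black line, arrow at the start), filled where called in that list alone and open where shared. Slc25a29, H2-Eb1, Nadk and Cebpb have a PBS-only peak at the start and no lysine peak, while Tnf, Itgax and Hnrnpf have lysine peaks further into the gene and Cox6a1 has one beyond its far end.

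The gene groups below were counted among genes that had any gene-end PBS peak, of which 21.3% had a PBS-only one. The corresponding share of lysine-only genes was 15.6% of 5664. Of all 1281 genes with a PBS-only gene-end peak, 234 (18.3%) had a lysine peak and 1047 had none. A lack of lysine peaks at a few genes of a group therefore does not set it apart. The groups are small and were not tested.

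Markers of dendritic cells and macrophages both appeared. Of 19 dendritic cell markers 12 had a PBS peak and 8 a lysine peak; 5 had a gene-end PBS peak, and for 4 of them it was PBS-only. With equal numbers of peaks, or at a fold of at least 4, that count was 2. Cd83, a maturation marker, had a member of −log10 q 3.85, and its single lysine peak of 298 bp overlapped a PBS peak nearer the other end. H2-Eb1 had a member of 1325 bp with a −log10 q of 3.75 and no lysine peak. The costimulatory ligand Cd80 had 2.23 and none. Itgax, which encodes CD11c, had 1.97 at its start, and a shared peak about 7.7 kb into the gene in both lists. Flt3, Irf8, Cd86 and Csf2ra had a peak in both lists, and Batf3, Irf4, Ccr7, H2-Aa, Spi1 and Csf2rb had none in either. Cd40 and Cd74 went the other way, with a lysine-only gene-end peak each, out of 3 dendritic cell markers that had a gene-end lysine peak.

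Of 10 macrophage and monocyte markers 4 had a gene-end PBS peak, all 4 PBS-only, and none had a gene-end lysine peak. Csf1r, the receptor of macrophage colony-stimulating factor, had 4.95, the endotoxin co-receptor Cd14 4.34 and Fcgr1 3.02. Csf1r also had a peak that both lists shared. None of these 8 marker peaks reached a −log10 q of 5. Adgre1, Lyz2, Ly6c2 and Marco had no peak in either list. Neutrophil markers had 1 member, S100a8 (5.08), and T and NK markers 1, Klrb1c (3.24), while the neutrophil marker Camp had a lysine-only gene-end peak and no PBS peak. The 10 B cell and 10 erythroid markers had no peak at all, and the 12 genes taken as silent had none in PBS and 1, Syn1, in lysine. Whether the share of macrophage-like cells differed between the cultures was not tested.

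Cytokine and chemokine genes had a PBS-only peak at 5 of 9 genes with a gene-end PBS peak. The member at Tnf (chr17:35202000-35202402) was the strongest of them, with a −log10 q of 7.31, and it lay upstream of the start over the promoter printed above, also near the end of the neighbouring Lta. Further into Tnf both lists had a peak, of 7.23 in PBS and 3.44 in lysine. The monocyte chemoattractant Ccl2 had 4.004, the neutrophil chemoattractant Cxcl2 3.73, the suppressive cytokine Tgfb1 2.40, and Il15 was the fifth. Tgfb1 had 2 lysine peaks elsewhere and Il15 had 1, whereas Ccl2 and Cxcl2 had none. Lysine-only gene-end peaks occurred at 2 of 6 genes of this list.

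Toll-like receptor and NF-kB genes had 6 of 15: the inhibitors Nfkbie (5.10) and Nfkbia (3.38), the adaptor Tirap (3.25), the kinase Ikbkb (1.89), Tlr2 (1.78) and Tlr3. The member at Nfkbia lay just beyond its far end. Within the gene body, which leaves that member out, lysine peaks covered 899 bp and PBS peaks 711 bp. MHC class I presentation had 4 of 11: the peptide transporter Tap1 and the immunoproteasome subunit Psmb8 shared 1 member of 1135 bp between them (3.32), and Tapbp (2.72) and H2-T23 (1.53) had 1 each. MHC class II presentation had 1 of 4, H2-Eb1. Interferon response genes had 4 of 16, namely Irf9 (5.28), Trim25 (3.22), Mavs (2.61) and Oasl1 (2.301), and none of these 4 had a lysine peak.

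Genes that handle lysine or sense amino acids were near the background. Lysine transport and catabolism had 3 of 10: Slc25a29 (5.45, no lysine peak), the lysyl-tRNA synthetase gene Kars (4.70, on a promoter shared with Terf2ip, no lysine peak) and the cationic amino acid transporter Slc7a2 (4.61, 783 bp, with a lysine peak of 440 bp elsewhere on the gene). In the mTORC1 and amino acid sensing list 4 of 24 had one. Among them were Nprl3 (3.90) and Depdc5 (2.22), which belong to a complex that restrains mTORC1 when amino acids are scarce, and Tbc1d7 (4.04), a subunit of the TSC complex. None of the 4 had a lysine peak, and 4 of the 25 genes of that list with a gene-end lysine peak had a lysine-only one.

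Mitochondrial respiration had 8 of 25, and none of the 8 genes had a lysine peak, as for 1047 of all 1281 member genes. The subunits Ndufs1 (4.89, at a peak also near the start of Eef1b2) and Ndufa10 (3.78) belong to complex I, Sdhc and Sdhd to complex II, Uqcrh to complex III, Cox7c to complex IV, and Atp5o (4.78) and Atp5c1 (4.06) to ATP synthase. Lysine-only gene-end peaks stood at 4 of 20 genes of the list. Mitochondrial ribosomal proteins had 9 of 42, and cytosolic ribosomal proteins 9 of 64, with the highest −log10 q at Rps27 (5.86).

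The H3K79 methylation and elongation list had 5 of 23, among them the elongation factor gene Supt6 (5.62), the kinase subunit gene of P-TEFb Cdk9 (3.27), Ube2b (1.64) and Leo1 (1.53), a subunit of the Paf1 complex. Ube2b had a lysine peak elsewhere. Histone and DNA modifying enzymes had 4 of 31, among them Setd1b (3.12) and Kdm1a (2.62), while 7 of 32 had a lysine-only gene-end peak. Of the 4 genes with a member, 3 had a lysine peak.

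Many groups had a smaller share than the background, and no test sets them apart from it or from each other. Among groups with at least 20 genes that had a gene-end PBS peak, the lowest shares were those of immediate early and AP-1 genes, 1 of 20 (Zfp36, 2.75), core and linker histones, 4 of 48, Rab GTPases, 2 of 31, and stress and unfolded protein response genes, 2 of 22. Atf6 (5.37, 1106 bp) and Ern1 (2.50), both sensors of misfolded protein, were the 2 stress genes. DEAD and DEAH helicases had 3 of 26, MAP kinases 3 of 24, translation factors 4 of 31, DNA repair genes 4 of 27, cell cycle genes 4 of 26, lysosome and autophagy genes 6 of 35 and splicing genes 6 of 34. Zinc finger genes of the Zfp, Zscan, Zkscan and Zbtb families had 47 of 171, and 5 of these 47 had a lysine peak. Coiled-coil domain genes had 16 of 51 and the ubiquitin ligase and deubiquitinase family 27 of 107. Histone, ribosomal protein and zinc finger genes have near-identical copies, and how reads mapping to several places were handled is unknown here.

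The X chromosome stood apart from the autosomes. Of its 60 gene-end PBS peaks 32 had no lysine partner, 53.3% (40.0 to 66.3), compared with 1091 of 5063, 21.5% (20.4 to 22.7), on the autosomes, where chromosome 10 was lowest at 16.7% and chromosome 2 highest at 26.5%. X peaks were somewhat weaker, with a median −log10 q of 4.18 against 4.86, and narrower, 390.5 against 507 bp. Within classes of strength the X share was 81.3% (54.4 to 96.0) against 46.5% under 3, 51.7% (32.5 to 70.6) against 27.7% from 3 to 5, and 4 of 15, 26.7% (7.79 to 55.1), against 6.08% at 5 or more. In the lysine list as a whole, 15 of 43 X gene-end peaks (34.9%, 21.0 to 50.9) lacked a PBS partner, against 15.9% on the autosomes. X peaks there were weaker too, with a median −log10 q of 3.45 against 4.58. Under 3 the lysine X share was 11 of 15, 73.3% (44.9 to 92.2), against 34.3%. It was 3 of 15 against 17.8% from 3 to 5, and 1 of 13 (7.69%) against 3.84% at 5 or more. The lysine excess thus lay mainly in the weakest class, and the stronger classes held too few X peaks to show one. Away from gene ends the X share of the PBS list was 53.7%, against 50.3% on the autosomes, and in the lysine list it was 19 of 38 against 32.8%. The 4 X members that reached a −log10 q of 5 were Psmd10 (6.99), Lonrf3 (6.58), Rlim (6.35), a ubiquitin ligase, and Mmgt1 (5.50). The X chromosome was singled out after its values had been seen.

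**Figure D5:**
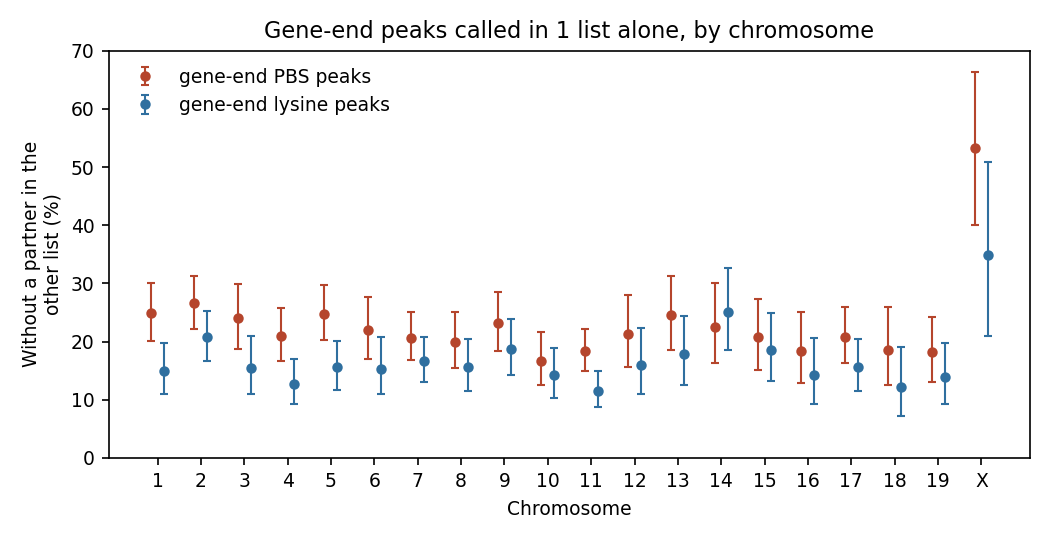
Share of gene-end peaks without a partner in the other list (vertical axis, percent) by chromosome (horizontal axis) for the PBS and lysine lists; bars are 95% Clopper-Pearson intervals. X is highest in both lists, at 53.3% and 34.9%.

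The members of −log10 q of at least 5 farthest from any lysine peak were at Mmgt1 (2930 kb) and Psmd10 (1430 kb) on X, Map9, which encodes a microtubule protein, the pair Lrriq3 and Fpgt, and Pot1a, which encodes a telomere-binding protein. None of these genes had a lysine peak.

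There were 11 genes with PBS-only peaks at 2 places near their ends: Eef1b2, Cep350, Eif6, Vasp, Ppcdc, Trf, Scimp, H2ac10, Zbtb22, Atat1 and Vps51. In 10 of them no lysine peak was called on the gene. At Eef1b2, a translation elongation factor of 3656 bp, the start had a −log10 q of 4.89 and the end 3.17. Ppcdc, an enzyme of coenzyme A synthesis, had 6.50 at its far end and 2.07 at its start. Scimp, an adaptor of antigen-presenting cells, had members of 3.35 and 3.13 at its ends and another PBS-only peak of 1181 bp inside, against a single lysine-only peak of 292 bp.

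There were 17 genes with a PBS-only peak and also a lysine-only gene-end peak. In Tmem43 the PBS-only peak had a −log10 q of 7.95 and the lysine-only one 2.24, with midpoints 15314 bp apart. The reverse held in Klhdc4, with 2.39 and 5.69, and in Mgll, with 1.87 and 4.76. In Rap1b, Pqlc3, Lrch1 and Pprc1 the midpoints were 1058.5, 413.5, 1249 and 731.5 bp apart, so both peaks lay at the same end. The member closest to a lysine peak was the one at Pqlc3, 20 bp away.

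At the borders of the definition, the last member inside the window was at Sephs1, with a midpoint 984 bp from the end, and the first PBS-only peak outside was at Lrrk1, at 1000.5 bp. The shared gene-end peak with the least overlap was at Dus3l, with 12 bp, and 349 shared gene-end PBS peaks were overlapped over the smaller part of their width.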

How the data were processed

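H3K79me2 was measured by paired-end ChIP-seq in 1 PBS and 1 lysine library. The 2 inputs were left out, having no peak list in this work. Per the submitters' processing notes, the tools were Bowtie2 2.3.4.1, MACS2 2.1.2, Trimmomatic 0.38, cutadapt 1.18, Picard, FastQC and ChIPseeker, with build GRCm38. Their roles, the thresholds and any use of inputs as controls were not given in the sources used here. One peak list per library was deposited by the authors, with no header, so the columns were read by the MACS2 broad layout. The deposited fold is a ratio of signal to background, and the deposited −log10 p and −log10 q are the caller's significance. The lowest −log10 q was 1.37 in PBS and 1.32 in lysine. These values depend on depth, which is unknown. Deciles and percentiles were taken within a list. Where values of both lists are printed side by side, or 1 threshold is applied to both, depth was not accounted for.

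Gene ends came from RefSeq GRCm38.p6 (21900 protein-coding genes, strand known for 17492). Overlap needed 1 bp. Alternatives were an overlap of at least 50% of the peak, a partner within 500 bp, −log10 q of at least 2 or 5, fold of at least 4, equal numbers of peaks, the narrow blocks of the gapped lists, and windows of 500 bp and 2 kb. The members and gene lists (21 lists with 713 of 714 entries matched, and 18 symbol families) were chosen with earlier results of these data known. Named are the 10 strongest, 10 widest and 10 highest by fold, genes with 2 members, up to 4 genes per list, and the 5 members of −log10 q of at least 5 farthest from a lysine peak. Further genes of the lists, and the genes of the X chromosome and of the borders, were named after their values were seen. The test on simulated data recovered 369 of 369 planted peaks at 2000 genes, and bedtools 2.31.1 differed on 0 real PBS peaks. Python 3.11.15, pandas 2.3.3, numpy 2.4.6, scipy 1.17.1 and matplotlib 3.10.9 were used. A few genes named by this rule are not reported here.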

Additional observations from a re-analysis of the deposited data

How the results depend on the processing

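No paired analysis was possible because each condition has 1 H3K79me2 library. The share of gene-end PBS peaks without a lysine peak, 21.9% as deposited, was 28.7% when at least 50% of the peak had to be overlapped, 23.6% at a −log10 q of at least 2 in both lists, 32.9% at 5, 25.7% at a fold of at least 4, 17.6% with equal numbers of peaks, 23.3% with narrow blocks and 23.6% with a 2 kb window. With the PBS list alone held to 5, an alternative chosen after seeing the data, it was 6.21%, and 153 members were left. The share whose gene has a lysine peak elsewhere, 20.2%, was 16.5% at a −log10 q of 2, 5.80% at 5, 11.5% at a fold of 4, 17.4% with equal numbers, 24.1% with narrow blocks, 17.4% with a 500 bp window and 25.1% with a 2 kb window. The median width, 401 bp, was 443 bp with that overlap, 499 bp at a −log10 q of 5, 435 bp at a fold of 4, 389 bp with narrow blocks and 436 bp with the PBS list alone at 5. The median gene length, 21959 bp, was 19727 bp at 5. The cause was not tested, beyond what each setting does to the lists. The number of members stayed between 793 and 1472 under the 9 alternatives of the methods. Under all 9, 142 of the 1123 members and 54 of the 165 named peaks were kept, the strict threshold removing 970. Dendritic cell markers with a member, 4 as deposited, numbered 2 with equal numbers of peaks, 2 at a fold of 4 and 0 at a −log10 q of 5. Macrophage markers, also 4, numbered 4, 3 and 0. Far ends lacked a partner in 40.7% to 62.2% and X gene ends in 48.0% to 60.0% under the 9, and in 18.9% and 26.7% with the PBS list alone at 5. Unknown depth and single libraries limit all of these values.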
